A study of Homo sapiens with 8 samples.

Results

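Tetraspanins are small membrane proteins with several membrane-spanning segments that gather integrins, immunoglobulin-superfamily proteins, proteases and each other into patches of membrane called tetraspanin-enriched microdomains. At the cell surface they bear on adhesion, migration and receptor traffic, and inside the cell they are carried into multivesicular bodies and onto extracellular vesicles, for which CD9, CD63 and CD81 are the usual markers. In colorectal carcinoma CD82 is known as a metastasis suppressor, and CD151 and TSPAN8 are known as promoters of motility. The 10 tetraspanins described here are CD9, CD63, CD81, CD82, CD151, TSPAN3, TSPAN6, TSPAN8, TSPAN13 and TSPAN15, taken by their Ensembl identifiers from the 48162 gene identifiers in the count tables. All 10 passed the filter on low counts.

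RNA was measured by poly(A) RNA sequencing in HT-29, an epithelial line from a human colorectal adenocarcinoma, in 4 libraries labelled wild type (WT) and 4 labelled HT-29-pMIEN1-X (MIEN1 KO), here called MIEN1_KO. MIEN1 encodes a small membrane-anchored protein linked to migration and invasion. The edited cells received plasmids for Cas9 and a pair of guide RNAs named for the 5′ and 3′ sides of MIEN1, were selected with puromycin and were grown up from single cells. The number of clones behind the 4 edited libraries is not stated, nor is a cloning step for the WT cells, so the edit, the selection and the clone cannot be told apart. Each replicate was a pool of RNA from 4 dishes, and p-values measure the spread between such pools.

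The libraries held between 21940903 and 25148790 counts. MIEN1 averaged 21.6 ± 1.36 CPM (counts scaled to a common library size by trimmed mean of M values; SD, n = 4) in WT and 0.805 ± 0.186 (SD, n = 4) in MIEN1_KO, a log2 fold change of -4.75 (SE 0.15, adjusted p = 1e-11, edgeR). Of 14228 genes tested, 41.7% were called at an adjusted p below 0.05 (edgeR quasi-likelihood test, Benjamini-Hochberg), 2981 higher (21.0%) and 2952 lower (20.7%) in MIEN1_KO. With upper-quartile scaling the split was 2468 higher and 3752 lower, and with the trend on transcript GC content removed it was 4147 higher and 1948 lower. All 8 epithelial markers were detected, with summed levels of 10752 to 11187 CPM in WT and 14091 to 17882 CPM in MIEN1_KO. The keratin KRT8 made up most of that sum, 4 of the 8 were higher (KRT8, KRT18, KRT19 and CLDN4), and EPCAM, CDH1, VIL1 and ELF3 were not called. The leukocyte markers summed to 893 to 933 CPM and 722 to 782 CPM, nearly all of it from the lysozyme gene LYZ, with LCP1 at 0 in every library and PTPRC at 0 counts in WT and 2 in MIEN1_KO. The 8 matched of 9 fibroblast, endothelial and muscle markers summed to 2.47 to 3.87 CPM and 4.53 to 5.60 CPM, with COL3A1 at 0 throughout. MIEN1_KO replicate 4 stood apart from its group: the chi-square per degree of freedom of its counts against the other 3 was 26.7 to 30.5, against 3.23 to 12.1 among those 3.

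Of the 10 tetraspanins, 4 were higher (CD81, CD82, CD151 and TSPAN15), 3 were lower (TSPAN3, TSPAN6 and TSPAN8) and 3 were not called (CD9, CD63 and TSPAN13), beside a background of 41.7% of genes called. The groups did not overlap for the 7 called genes, beside 41.0% of all tested genes. The median log2 fold change was -0.06 over the 10 and -0.02 over all genes, so gains and losses were mixed within the set. In bulk RNA, fewer cells that express a gene and less RNA per cell cannot be told apart.

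The sequence just upstream of the first-listed transcript start differs widely in base composition between these genes. To show that range, 4 called members are printed: both members that fell and both that rose for which RefSeq (GRCh38.p14) gave an entry. Each line is the 250 bases before the first-listed transcript start, 5′ to 3′ on the gene's strand, with CG dinucleotides in capitals. They lie at chr12:71158000-71158249 (TSPAN8, minus strand), chrX:100637105-100637354 (TSPAN6, minus strand), chr11:44565413-44565662 (CD82, plus strand) and chr10:69451215-69451464 (TSPAN15, plus strand). The windows of TSPAN8, TSPAN6 and CD82 lie inside the gene coordinates given below, and that of TSPAN15 lies just outside. Whether these windows act as promoters in HT-29 was not tested.
TSPAN8: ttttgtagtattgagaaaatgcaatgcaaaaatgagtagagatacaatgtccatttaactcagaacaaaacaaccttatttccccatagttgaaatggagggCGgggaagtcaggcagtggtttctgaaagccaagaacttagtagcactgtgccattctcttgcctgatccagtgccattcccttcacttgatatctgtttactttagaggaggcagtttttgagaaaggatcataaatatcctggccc
TSPAN6: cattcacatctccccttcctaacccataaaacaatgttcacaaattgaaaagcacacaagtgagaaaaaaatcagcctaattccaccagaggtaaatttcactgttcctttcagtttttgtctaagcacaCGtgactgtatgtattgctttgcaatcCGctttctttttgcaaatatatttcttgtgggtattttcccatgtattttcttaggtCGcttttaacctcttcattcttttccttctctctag
CD82: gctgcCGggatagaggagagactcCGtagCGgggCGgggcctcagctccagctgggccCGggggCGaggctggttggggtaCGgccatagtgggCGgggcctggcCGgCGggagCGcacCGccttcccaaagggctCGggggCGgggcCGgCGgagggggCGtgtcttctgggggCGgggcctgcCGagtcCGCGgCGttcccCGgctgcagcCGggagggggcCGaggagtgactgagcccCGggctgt
TSPAN15: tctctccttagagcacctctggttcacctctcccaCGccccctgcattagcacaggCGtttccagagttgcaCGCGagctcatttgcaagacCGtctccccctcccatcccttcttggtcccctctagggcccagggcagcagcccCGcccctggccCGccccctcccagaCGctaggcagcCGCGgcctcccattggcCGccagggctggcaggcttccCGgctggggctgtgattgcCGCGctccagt

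The TSPAN8 window holds 1 CG dinucleotide at 40.8% GC and the TSPAN6 window 3 at 36.4%, whereas the CD82 window holds 26 at 77.2% and the TSPAN15 window 14 at 67.6%. The first-listed windows of the members that were not called held 30 CG dinucleotides at 79.2% GC for CD63, 22 at 70.0% for TSPAN13 and 10 at 52.8% for CD9, so the CG-rich windows included genes that were not called. The medians over 27305 RefSeq promoters of this length were 11 CG dinucleotides and 58% GC. Entries were matched for 7 of the 10 members, not for CD81, CD151 or TSPAN3. TSPAN6 and TSPAN8 each had a further listed start, with 7 and 2 CG dinucleotides, at 45.2% and 36% GC. CD9 had further listed starts with 28, 29 and 1 CG dinucleotides, at 76.8%, 76.8% and 44.8% GC. The further starts of CD63 held 4 to 26 CG dinucleotides. The values for these genes, and the motif matches below, therefore depend on which start is taken. On both strands of the 7 first-listed windows, the GC box GGGCGG was found in 5 members (42.3% of all promoters), CCAAT in 3 (33.0%) and TATAAA in 0 (11.1%). The forkhead core TGTTTAC was found in TSPAN8 alone of the 7 (2.98% of all promoters), and the CDX-type TTTATGG in TSPAN6 alone (2.43%). CATTCC, a TEAD-type core, was found in TSPAN8 (11.9%), and neither AGATAA (9.37%) nor CAAAGTCCA (0.293%) was found. These matches describe letters in a window and not bound sites.

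Among the surface tetraspanins that bind integrins, CD151 rose most. CD151 (ENSG00000177697, chr11:832843-839831, plus strand) forms a tight complex with the laminin-binding integrins. Its level was 346, 324, 321 and 325 CPM in the 4 WT libraries and 512, 478, 478 and 650.0 CPM in the 4 MIEN1_KO libraries. Every edited library lay above every WT library, and the highest was MIEN1_KO replicate 4. The mean rose from 329 ± 11.5 to 529.5 ± 81.9 CPM (SD, n = 4 each), 1.61-fold, with a log2 fold change of 0.69 (SE 0.11, edgeR adjusted p = 6.2e-05). Without MIEN1_KO replicate 4 the log2 fold change of CD151 was 0.59 (edgeR adjusted p = 1.6e-08).

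CD82 (ENSG00000085117, chr11:44564427-44620363, plus strand), also called KAI1 and known for restraining integrin and growth factor receptor signalling, rose as well. It measured 201, 177, 179 and 184 CPM in WT and 248, 222, 248 and 334 CPM in MIEN1_KO. The groups were separate, and MIEN1_KO replicate 4 again held the highest value. The log2 fold change was 0.50 (SE 0.13, edgeR adjusted p = 0.0019), from 186 ± 10.8 to 263 ± 48.8 CPM (SD, n = 4 each). Without that library it was 0.39 (edgeR adjusted p = 1.5e-05).

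CD81 (ENSG00000110651, chr11:2376177-2397419, plus strand) and CD9 (ENSG00000010278, chr12:6199715-6238271, plus strand) share immunoglobulin-superfamily partners, and only CD81 was called. CD81 measured 167, 173, 174 and 165 CPM in WT and 211, 218, 224 and 284 CPM in MIEN1_KO. All edited libraries were above all WT libraries, and the mean rose from 169.6 ± 4.15 to 234 ± 33.5 CPM (SD, n = 4 each), a log2 fold change of 0.47 (SE 0.10, edgeR adjusted p = 0.00082). With the GC trend removed, the CD81 difference was 0.13 and was no longer called (edgeR adjusted p = 0.13). CD9 measured 132, 130.1, 133 and 125 CPM in WT and 112, 119, 106 and 125 CPM in MIEN1_KO. Only MIEN1_KO replicate 4 reached the WT range. The log2 fold change of CD9 was -0.17 (SE 0.05) and missed the threshold (unadjusted p = 0.024, edgeR adjusted p = 0.056). It passed without MIEN1_KO replicate 4, at -0.19 (edgeR adjusted p = 0.0070), and with upper-quartile scaling, a stricter count filter, DESeq2 or limma-voom.

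TSPAN8 (ENSG00000127324, chr12:71125085-71441898, minus strand), a tetraspanin of gastrointestinal epithelium that is abundant in many colorectal carcinomas, fell most of the 10. Its level was 419, 439, 411 and 408 CPM in WT and 189, 206, 163 and 196 CPM in MIEN1_KO. The groups were far apart, and MIEN1_KO replicate 3 was the lowest edited library, at -0.21 from its group mean (log2 CPM). The mean fell from 419 ± 13.8 to 188 ± 18.4 CPM (SD, n = 4 each), 2.23-fold, with a log2 fold change of -1.15 (SE 0.08, edgeR adjusted p = 6.3e-08). It kept a value of -1.15 without MIEN1_KO replicate 4 and measured -0.89 with the GC trend removed (edgeR adjusted p = 2.3e-07).

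TSPAN3 (ENSG00000140391, chr15:77041404-77083984, minus strand), a broadly expressed family member, measured 363, 393, 373 and 369 CPM in WT and 243, 251, 237 and 260.4 CPM in MIEN1_KO. The groups did not overlap, and the spread was small in both. TSPAN3 fell by 0.60 on the log2 scale (SE 0.04, edgeR adjusted p = 4.7e-06), from 375 ± 13.1 to 248 ± 10.2 CPM (SD, n = 4 each). TSPAN6 (ENSG00000000003, chrX:100627109-100639991, minus strand), known as a negative regulator of antiviral signalling, was the least abundant member. It measured 39.6, 41.9, 42.0 and 41.0 CPM in WT and 29.0, 32.2, 30.4 and 32.1 CPM in MIEN1_KO. All edited libraries were below all WT libraries, with a log2 fold change of -0.41 (SE 0.04, edgeR adjusted p = 0.00026). With the GC trend removed TSPAN6 was at -0.11 and was not called (edgeR adjusted p = 0.18).

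CD63 (ENSG00000135404, chr12:55725323-55729707, minus strand) is the tetraspanin of late endosomes and lysosomes. It measured 565, 566, 537 and 522 CPM in WT and 498, 553, 458 and 577 CPM in MIEN1_KO. The edited libraries scattered on both sides of the WT range, and the difference of -0.07 (SE 0.08, log2 scale) was not called (edgeR adjusted p = 0.49). TSPAN13 (ENSG00000106537, chr7:16753535-16784536, plus strand) measured 89.7, 94.7, 88.4 and 85.1 CPM in WT and 81.9, 94.3, 85.9 and 85.2 CPM in MIEN1_KO. Its groups overlapped almost fully, with a difference of -0.04 (SE 0.05, edgeR adjusted p = 0.63). With the GC trend removed its sign turned, to 0.17, and it was called higher (edgeR adjusted p = 0.014). That alternative also raised the median of all genes by 0.10, and TSPAN13 then lay 0.09 above the median gene.

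TSPAN15 (ENSG00000099282, chr10:69451473-69507669, plus strand) belongs to the TspanC8 group, tetraspanins that escort the protease ADAM10 out of the endoplasmic reticulum and steer its choice of substrate. It measured 93.7, 86.1, 84.4 and 95.4 CPM in WT and 108, 103, 104 and 126 CPM in MIEN1_KO. The ranges were close but did not overlap. TSPAN15 rose by 0.30 on the log2 scale (SE 0.08, edgeR adjusted p = 0.0082).

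**Figure D1:**
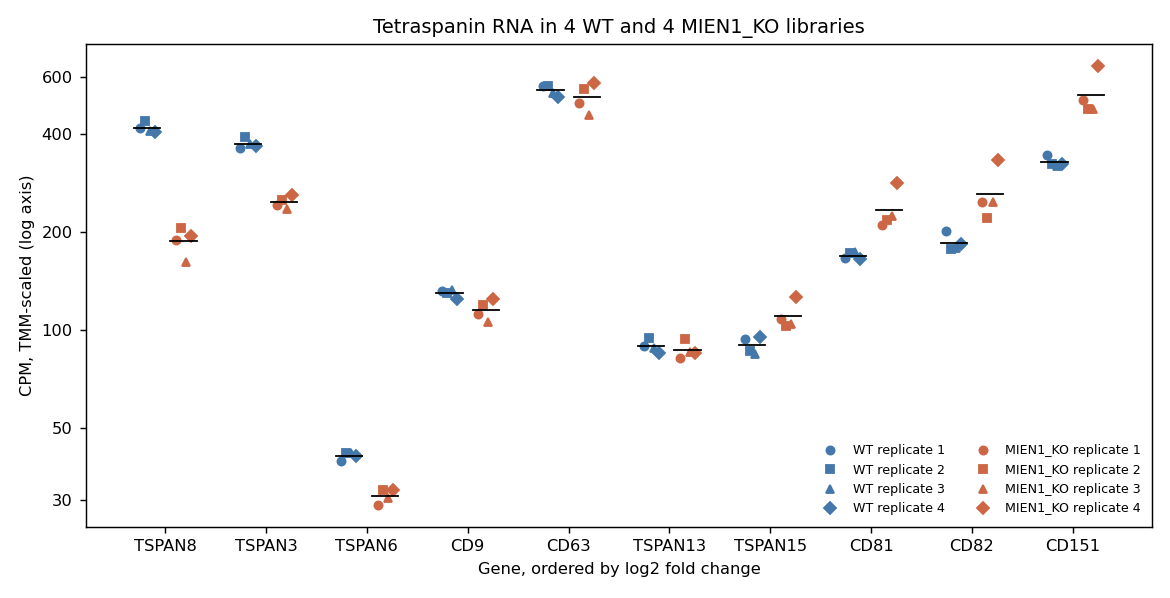
Level of each of the 10 tetraspanins in every library, in CPM on a log axis, with WT and MIEN1_KO replicates as separate marks and genes ordered by log2 fold change. TSPAN8 at the low end (408 to 439 CPM against 163 to 206 CPM) and CD151 at the high end (321 to 346 CPM against 478 to 650.0 CPM) are clearly separated, while CD63, CD9 and TSPAN13 overlap.

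Levels of different genes were compared per kilobase of merged exons. In WT the order was CD63 (208 ± 8.16 CPM per kilobase; SD, n = 4), TSPAN8 (166 ± 5.47), CD151 (83.5 ± 2.91), CD82, TSPAN3, TSPAN13, TSPAN15, CD9, CD81 and TSPAN6 (9.06 ± 0.247). Only CD82 with TSPAN3 and TSPAN15 with CD9 had ranges that overlapped their neighbour's. In MIEN1_KO, CD63 stayed first at 198 ± 20.4 and TSPAN6 last at 6.82 ± 0.335, and CD151 (134 ± 20.8) stood above TSPAN8 (74.8 ± 7.32), which overlapped CD82 (64.8 ± 12.0). TSPAN15, TSPAN13, CD81, TSPAN3 and CD9 followed, each with a range that overlapped that of the next, although TSPAN15 lay wholly above CD81, TSPAN3 and CD9, and TSPAN13 wholly above TSPAN3 and CD9.

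CD151 and TSPAN8 thus changed places. The ratio of TSPAN8 to CD151, per kilobase, was 1.90 to 2.11 in the 4 WT libraries and 0.470 to 0.674 in the 4 MIEN1_KO libraries. With longest-transcript lengths it was 1.48 to 1.66 and 0.369 to 0.528. The ratio of CD9 to CD81 was 1.34 to 1.40 in WT and 0.781 to 0.971 in MIEN1_KO per kilobase of merged exons, but 2.26 to 2.38 and 1.32 to 1.64 with longest-transcript lengths. The ratio was lower in the edited libraries with either length, and which of CD9 and CD81 stood higher in MIEN1_KO depended on the length used. The summed level of the 10 members was 667 to 700.4 CPM per kilobase in WT and 589.5 to 736 in MIEN1_KO, with overlapping ranges. Within that sum TSPAN8 held 24.3% ± 0.443 in WT and 11.6% ± 0.989 in MIEN1_KO (SD, n = 4 each). CD151 held 12.2% ± 0.342 and 20.7% ± 1.46, and CD63 held 30.3% ± 0.449 and 30.6% ± 1.42 (SD, n = 4 each). With longest-transcript lengths CD63, TSPAN8, CD151 and CD82 led in the same order in WT, and CD63, CD151, TSPAN8 and CD82 in MIEN1_KO, with TSPAN6 last in both. The middle of the order was not kept: CD9 moved from rank 8 to 5 in WT and from rank 9 to 5 in MIEN1_KO, and TSPAN13 from rank 6 to 8 in both.

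The edited libraries had a larger coefficient of variation than the WT libraries for all 10 members. It was 18.6% against 5.83% for CD82, 15.5% against 3.49% for CD151 and 14.3% against 2.45% for CD81. Of the other tested tetraspanins, TSPAN14 (3.42% against 3.71%) and TSPAN31 (1.81% against 3.58%) went the other way. The rest also varied more in the edited libraries. The share of all tested genes that did so was not worked out. MIEN1_KO replicate 4 held the highest edited value for 7 of the 10, a share not worked out over all tested genes. It lay above its group mean by 0.36 (log2 CPM) for CD82, 0.31 for CD151, 0.29 for CD81 and 0.20 for TSPAN15. It did not lie above the other edited libraries for TSPAN6, TSPAN8 or TSPAN13, where MIEN1_KO replicate 2 was highest. Without it 4 members were higher and 4 lower, beside 45.9% of all tested genes called in that fit. What sets this library apart was not tested.

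The 23 other tetraspanin genes give the rest of the family. Of these, 13 passed the filter on low counts: 8 were higher (TSPAN1, TSPAN4, TSPAN9, TSPAN14, TSPAN17, TSPAN32, ROM1 and CD37), 3 were lower (TSPAN5, TSPAN12 and TSPAN33) and 2 were not called (TSPAN11 and TSPAN31), with a median log2 fold change of 0.28, beside 41.7% of all tested genes called and 21.0% higher. The other 10 (TSPAN2, TSPAN7, TSPAN10, TSPAN16, TSPAN18, TSPAN19, UPK1A, UPK1B, PRPH2 and CD53) had at most 32 counts summed over a group and were not tested in the main fit. Without the filter TSPAN2 was called higher (log2 fold change 2.14, edgeR adjusted p = 0.0037), on 7 counts summed over WT and 31 over MIEN1_KO. In that fit 23.3% of all genes were called, and none of the others of these 10 was. TSPAN12, a co-receptor of Norrin-Frizzled signalling, showed the largest fall of the tested family. It measured 57.2, 54.8, 53.6 and 53.2 CPM in WT and 24.5, 20.5, 20.2 and 20.5 CPM in MIEN1_KO, a log2 fold change of -1.35 (SE 0.07, edgeR adjusted p = 1.5e-08). The groups were far apart, with MIEN1_KO replicate 1 somewhat above the rest.

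TSPAN4, a tetraspanin of migrasomes whose gene lies beside CD151, rose from 11.3 ± 0.970 to 18.7 ± 2.10 CPM (SD, n = 4 each; log2 fold change 0.72, SE 0.10, edgeR adjusted p = 6.6e-05). TSPAN9, known from platelets, rose from 41.0 ± 1.45 to 57.7 ± 4.24 CPM (0.49, SE 0.06, edgeR adjusted p = 0.00011). ROM1, a photoreceptor tetraspanin, was at 4.83 ± 0.0929 and 8.85 ± 1.56 CPM (0.87, SE 0.12, edgeR adjusted p = 9.3e-05), and 24.8% of its exon length is shared with EML3 on the opposite strand. Whether counting used strand is not given in the sources used here, so reads of such pairs cannot be told apart. Among the 10 members the largest such share with a gene on the other strand was 9% for CD63, and CD151 shares 6.53% with POLR2L.

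The tested tetraspanins differed in base composition along with their direction. Of the 7 whose longest transcript had a GC content below the median of tested genes (48.8%), 0 were called higher and 5 lower. Of the 16 above it, 12 were higher and 1 lower, the exception being TSPAN33. Over all tested genes 21.0% were higher and 20.7% lower, and these shares were not worked out by GC content. Among the 10 members GC content ran from 38.6% in TSPAN6, 40.9% in TSPAN8, 44.4% in TSPAN13 and 48.0% in TSPAN3 to 59.0% in CD82, 62.6% in CD151 and 64.9% in CD81. Across the 10 genes the fold change and GC content had a Pearson r of 0.85 (Spearman rho 0.84), and across the 23 tested family members 0.83 (rho 0.86). Over 13826 tested genes with a GC value r was 0.28 (rho 0.52), so a relation to GC content was not confined to tetraspanins. These genes share the same 8 libraries and are not independent replicates, so the values are descriptions.

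A fit with each library's GC trend removed called 42.8% of all genes. In it 4 members were higher and 2 lower. The Pearson r of fold change with GC content was then 0.66 across the 10 members and 0.67 across the 23 tested family members. Over all tested genes with a GC value it was 0.0097. CD151 (0.42, edgeR adjusted p = 2.0e-05), CD82 (0.33, edgeR adjusted p = 0.00069), TSPAN15 (0.18, edgeR adjusted p = 0.0076), TSPAN3 (-0.47, edgeR adjusted p = 3.1e-06) and TSPAN8 kept their direction and call. CD81 and TSPAN6 lost theirs, and TSPAN13 gained one, as given above. Relative to the median gene of that fit, CD151 lay 0.34 higher, TSPAN8 lay at -0.97 and TSPAN15 lay 0.09 higher. What links GC content to the fold changes was not tested.

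**Figure D2:**
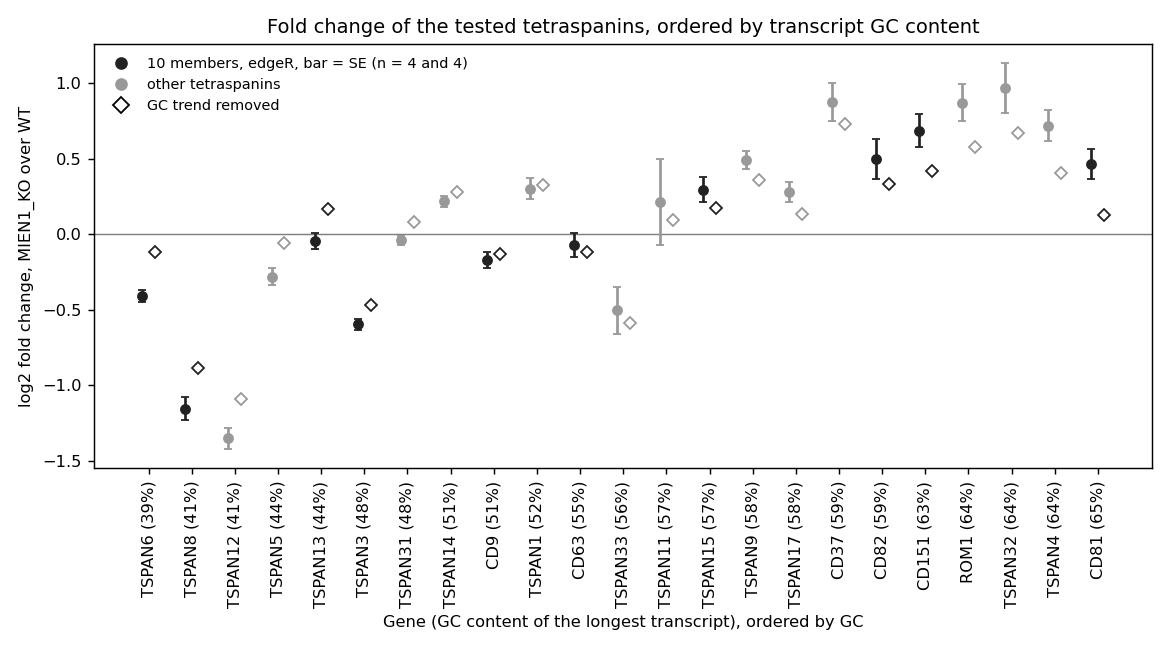
Log2 fold change (MIEN1_KO over WT) of the 23 tested tetraspanins, ordered by the GC content of the longest transcript, with filled points for the edgeR fit (bar, SE) and open diamonds for the fit with the GC trend removed. The 7 genes of lowest GC content on the left have filled points below 0, TSPAN8 at -1.15 among them, and with the GC trend removed TSPAN13 (0.17) and TSPAN31 (0.08) lie above it while TSPAN8 lies at -0.89. Most high-GC genes on the right lie above 0 in both fits, such as CD151 (0.69, then 0.42).

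Tetraspanins act through partners, and 24 partner and modifier genes were read beside them: 7 were higher, 7 lower and 10 not called, beside 21.0% of all genes higher and 20.7% lower, with a median log2 fold change of -0.02. ZDHHC2, a palmitoyltransferase that acts on CD9 and CD151, fell from 7.79 ± 0.292 to 0.618 ± 0.278 CPM (SD, n = 4 each), a log2 fold change of -3.65 (SE 0.34, edgeR adjusted p = 1.1e-08). Each edited library was at or below 0.833 CPM, against at least 7.40 CPM in WT. The tight-junction protein CLDN1 fell by 1.21 (SE 0.05, edgeR adjusted p = 2.8e-08), the surface peptidase DPP4 by 1.29 (SE 0.08, edgeR adjusted p = 4.3e-08) and the membrane protease MMP14 fell by 0.92 (SE 0.12, edgeR adjusted p = 5.7e-05), all on the log2 scale.

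In the TspanC8 group with ADAM10, 6 of 7 genes were tested and 3 were higher and 3 lower, beside 41.7% of all tested genes called. TSPAN15, TSPAN14 (0.22, SE 0.04, edgeR adjusted p = 0.0095) and TSPAN17 (0.28, SE 0.06, edgeR adjusted p = 0.0075) rose. ADAM10 (-0.28, SE 0.09, edgeR adjusted p = 0.014), TSPAN5 (-0.28, SE 0.06, edgeR adjusted p = 0.0085) and TSPAN33 (-0.50, SE 0.15, edgeR adjusted p = 0.034) fell. The TSPAN33 call was lost under 7 alternatives. ADAM10 was not called without WT replicate 2 (-0.25, edgeR adjusted p = 0.054) or WT replicate 3 (-0.26, edgeR adjusted p = 0.052), and measured -0.18 without MIEN1_KO replicate 4 (edgeR adjusted p = 0.0046). With the GC trend removed 3 of the 6 were called, beside 42.8% of all genes, and TSPAN17 (0.13), TSPAN5 (-0.06) and ADAM10 (0.017) were not.

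Of 30 genes of exosome formation and multivesicular bodies, 13 were higher, 4 lower and 13 not called, with a median log2 fold change of 0.10, beside 21.0% of all genes higher and 20.7% lower. With upper-quartile scaling 9 were higher and 6 lower, beside 43.7% of all tested genes called. With the GC trend removed 15 were higher and 3 lower, beside 29.1% and 13.7% of all genes. The median was then 0.13, beside 0.08 over all genes. Without WT replicate 2 or WT replicate 3 it was 9 and 3, beside 32.5% and 32.7% of all tested genes called. SMPD3, the neutral sphingomyelinase that makes ceramide for vesicle budding, rose from 31.4 ± 2.25 to 87.0 ± 8.95 CPM (SD, n = 4 each; 1.47, SE 0.09, edgeR adjusted p = 2.1e-08). RAB27A, which docks multivesicular bodies at the plasma membrane, fell from 6.77 ± 0.635 to 3.03 ± 0.431 CPM (-1.16, SE 0.12, edgeR adjusted p = 8.5e-06). The secreted glycoprotein LGALS3BP (0.51, edgeR adjusted p = 0.00021) and the ESCRT-I subunit VPS37B (0.43, edgeR adjusted p = 0.0006) rose. Of 11 genes of the lysosomal membrane and the AP-3 adaptor, which sorts CD63, 3 were higher, 2 lower and 6 not called, with a median of 0.02, a share called of 45.5% that is near the 41.7% of all tested genes. Those with the smallest p were the AP-3 subunits AP3D1 (0.54, edgeR adjusted p = 4.7e-05) and AP3S1 (-0.39, edgeR adjusted p = 0.00054), the proton pump subunit ATP6V0D1 (0.48, edgeR adjusted p = 0.00013) and LAMP1 (0.34, edgeR adjusted p = 0.00046).

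The genes whose profile over the 8 libraries came nearest to the members with the largest rise and fall were taken by Euclidean distance of log2 CPM centred on each gene's mean, among 10018 protein-coding genes. For CD151 they were UBL4A (distance 0.11), RRP9 (0.12) and LYPLA2 (0.13), with log2 fold changes of 0.66, 0.69 and 0.73. For TSPAN8 they were ALDOC (0.17), AGR2 (0.25) and TCEA3 (0.27), with log2 fold changes of -1.20, -1.21 and -1.18. ALDOC encodes a glycolytic aldolase and AGR2 a protein disulfide isomerase of mucus-producing cells. These 6 were chosen for their likeness, so their fold changes are descriptions.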

How the data were processed

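The tools named are TopHat2 2.0.9 and HTSeq 0.6.1, with the build GRCh38, per the submitters' processing notes. The authors deposited 1 table of raw read counts per library. The sources used here name neither the annotation release nor the strand setting. Of 48162 Ensembl identifiers, 45342 matched GENCODE release 29, which gave symbols, coordinates, lengths and GC content. Counts were fitted with edgeR 4.0.16 (R 4.3.3): default filter on low counts (14228 genes kept, 33934 set aside), TMM scaling, robust quasi-likelihood test, two-sided, Benjamini-Hochberg over all tested genes, threshold 0.05. SE is from the spread of log2 CPM between libraries. Depth was 21940903 to 25148790 counts per library. The procedure was tested on simulated data. Named genes were all 10 members, MIEN1, and in each related list the 4 genes with the smallest p, plus the 3 nearest profiles to the extreme members; ADAM10 and TSPAN33 were named after their values were seen. The members and lists were chosen with earlier results of these data known. Alternatives were DESeq2 1.42.0, limma-voom 3.58.1, other scaling and filters, a replicate block, GC-trend removal (loess, span 0.5) and leaving out each library. Promoter sequences are RefSeq's. Protein sequences were not used here.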

Additional observations from a re-analysis of the deposited data

Results flagged for a closer look

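Among 86 groups of 4 libraries (43 genes), 5 had a highest or lowest library set apart from the other 3 by more than Dixon's 95% critical value, where chance flags about 1 in 20. TSPAN12 was at 24.5 CPM in MIEN1_KO replicate 1, against 20.2 to 20.5 CPM in the other edited libraries, all below every WT library. TSPAN11 was at 1.67 CPM in the same library, against 0.750 to 0.880 CPM. UBL4A was at 274.9 CPM and RRP9 at 113 CPM in MIEN1_KO replicate 4, above 210.0 to 218 CPM and 85.7 to 88.6 CPM in the other edited libraries. Both were chosen for a profile like that of CD151, which was also highest in that library. LAMP1 was at 437 CPM in WT replicate 4, below 449 to 451 CPM in the other WT libraries. No level of the 10 tetraspanins was set apart in this way.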

How the results depend on the processing

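The direction and call of CD82, CD151, TSPAN3, TSPAN8 and TSPAN15 held under every alternative run. CD9, not called at -0.17, was called lower with upper-quartile scaling (-0.23), with a minimum of 50 counts (-0.19), with DESeq2 (-0.16) and with limma-voom (-0.17), and ranged from -0.19 to -0.12 with 1 library left out. With the GC trend removed, CD81 (0.13) and TSPAN6 (-0.11) were no longer called, TSPAN13 turned to 0.17, and 3 of the 6 tested genes of the TspanC8 and ADAM10 list were called. With the replicate block as well, the values were 0.13, -0.12, 0.17 and 3 genes. The labels do not say whether libraries of the same replicate number were handled together. Correlations of deviations from the group mean ran from -0.08 to 0.20 for same-numbered libraries and from -0.16 to 0.25 for the others. So few values cannot settle whether the numbers mark pairs. The replicate block alone gave 5984 calls over all genes and the same 7 tetraspanins called. Leaving out 1 library moved CD151 from 0.59 to 0.75 and TSPAN8 from -1.20 to -1.08. Of 542 values for 32 other named genes, 527 kept direction and call and 13 lost the call (TSPAN33 under 7 alternatives). ADAM10 turned to 0.017 with the GC trend removed and 0.015 with the block as well, and was not called in either. Per-kilobase levels rose with longest-transcript lengths. The cause of these changes was not tested. Low counts limit the 10 tetraspanins not tested in the main fit.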

Other observations

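CD151, TSPAN4, TSPAN32 and CD81 lie within a short stretch of chromosome 11p, and all 6 tested tetraspanins of chromosome 11 (these, CD82 and ROM1) were higher in MIEN1_KO. Between the start of CD151 and the end of CD81 (chr11:832843-2397419, GRCh38), 31 genes were tested, of which 21 were higher (67.7%) and 2 lower, with a median log2 fold change of 0.57. On chromosome 11 as a whole 32.7% of 829 tested genes were higher, and over all genes 21.0%. The median GC content of the 31 genes was 62.1%, against 51.9% for chromosome 11. With the GC trend removed, 14 of the 31 were higher (45.2%) and 4 lower, with a median of 0.35, beside 36.9% higher for chromosome 11 and 29.1% for all genes, and 5 of the 6 tetraspanins were called higher. This stretch was chosen after its values were seen, so these are descriptions with no test, and copy number was not measured here.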
